A study of Mus musculus with 64 samples.

Results

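Striatal RNA of 20 mice was compared right after each mouse had spent 5 min on an elevated plus maze, a test of anxiety-like behaviour, 10 mice with high and 10 with low levels of Fos, out of 32 mice in all. The mice were chosen by their measured Fos level alone. Reads of the 2 sequencing runs of each mouse were summed, Fos was expressed as counts per M reads of the mouse (CPM), and mice were ranked within genotype and numbering set. Set A held mice 1 to 16 and set B mice 17 to 32. By the labels the sets were sequenced on different lanes, so set and lane cannot be told apart. The 3 highest and 3 lowest mice were taken from each set of 10 mice, and the 2 highest and 2 lowest from each set of 6. High and low Fos are therefore not groups of the study, which assigned mice by genotype and sex. Fos itself is given as a description with no test, and a p-value for another gene measures its association with Fos among mice picked at both ends of the Fos range, not an effect of a treatment.

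The 32 mice were on a C57BL/6NJ background, and 16 carried the Cyfip2 genotype N/N while 16 carried N/-, with a single N allele. Cyfip2 encodes a subunit of the actin-regulating WAVE complex, and the labels mark N/N mice as prone and N/- mice as resistant to binge eating. Punches of the striatum were taken on Day 24 directly after the maze, from mice 82 to 84 days old, labelled as 8 males and 8 females per genotype. All mice went through the maze and no mouse without it was analysed here, so every level below is a level after the maze. Diet and training are not given in the labels and were not modelled. Each group of 10 held 5 N/- and 5 N/N mice, and 5 mice of each set. The high group had 5 males and 5 females and the low group 4 males and 6 females. In N/- mice of set A the 3 high mice were all male and the 3 low mice all female.

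Fos is the best known immediate early gene, a gene whose transcription starts within minutes of calcium entry, cAMP signalling or growth factor signalling and needs no new protein. Its product pairs with Jun proteins as the AP-1 transcription factor, and other immediate early genes encode the zinc finger factors of the Egr family, the nuclear receptors of the Nr4a family, the neuronal factor Npas4 and synaptic proteins such as Arc. In the striatum these genes respond to dopamine and glutamate input and are widely used as markers of recently active projection neurons. Dual-specificity phosphatases and Sprouty proteins are transcribed in the same response and act back on the MAP kinase pathway that started it.

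Fos counts were low in absolute terms, 58 to 84 reads in the low mice and 153 to 520 in the high mice, with library totals between 28.79 M and 33.84 M reads per mouse. In the low group Fos ran from 1.76 to 2.75 CPM with a median of 2.21 CPM. The 12 mice between ran from 2.22 to 6.22 CPM with a median of 3.54 CPM. In the high group Fos ran from 5.31 to 17.6 CPM with a median of 8.94 CPM, a ratio of medians of 4.04. The gap at the border differed between strata, the 4 combinations of genotype and set. In N/- mice of set A the lowest high mouse had 10.7 CPM and the highest mouse between had 6.22 CPM, and in N/- mice of set B these were 6.89 and 2.47 CPM. In N/N mice of set A they were close, at 5.31 and 4.69 CPM, and in set B they were 6.28 and 4.22 CPM. At the lower border the lowest mouse between and the highest low mouse differed by little in every stratum, for example 2.87 and 2.68 CPM in N/N mice of set A.

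**Figure D1:**
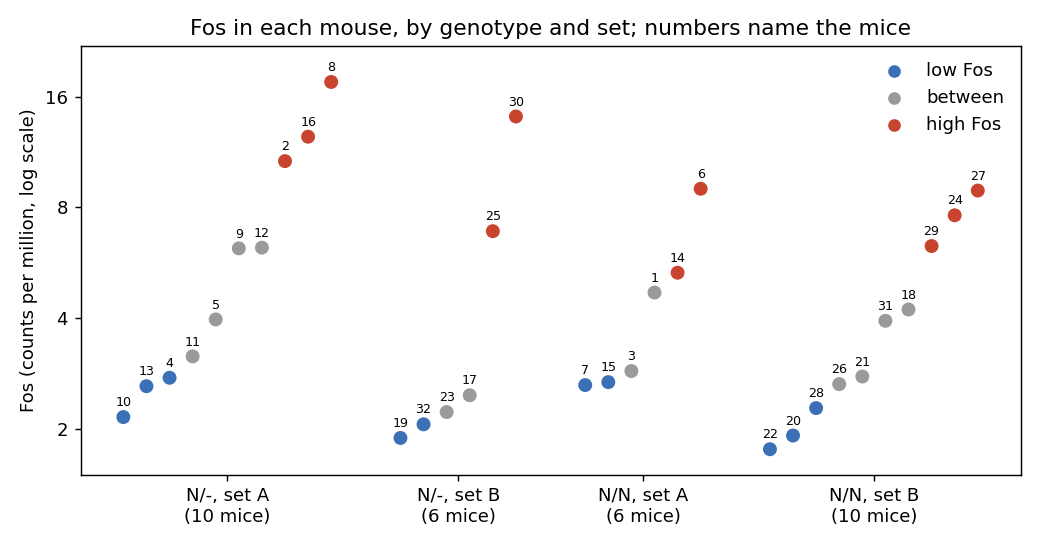
Fos in each of the 32 mice, in CPM on a log scale, with 1 point per mouse, the mouse number above it and 4 blocks for genotype and set. Red points are the 10 high mice (5.31 to 17.6 CPM), blue points the 10 low mice (1.76 to 2.75 CPM) and grey points the 12 mice between.

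Across the 16923 genes tested apart from Fos, 7 genes had higher RNA levels in the high Fos mice and 0 had lower levels at an adjusted p under 0.05 (edgeR quasi-likelihood test with genotype by set and sex as terms). The 7 genes, 0.0414% of those tested, were Dusp1, Arc, Npas4, Egr2, Arl4d, Junb and Nr4a1, and each of them is on a list of early response genes. Their fitted differences ran from 0.49 to 1.66 on the log2 scale. At an unadjusted p under 0.05 there were 209 higher genes (1.24%) and 358 lower genes (2.12%). DESeq2 with the same terms called 11 higher and 0 lower genes. Groups of 10 that did not overlap were found for 3 genes with higher levels, 0.0177% of those tested, which were Dusp1, Arc and Npas4, and for 0 genes with lower levels (0%).

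Promoter sequences are shown for Fos and 5 of the 7 genes because matches to the binding motif of the cAMP and calcium responsive factor CREB, and in Egr2 to that of serum response factor, recur in them. The windows run from 250 bases before to 50 bases after an annotated start, 5′ to 3′ on the strand of the gene, from RefSeq on GRCm38.p6. Capitals mark the full cAMP response element TGACGTCA, its short form TGACG on either strand (CGTCA when it lies on the other strand) and, in Egr2, the CArG box bound by serum response factor. The short form lies inside the full element, so a full element counts for both.
Fos: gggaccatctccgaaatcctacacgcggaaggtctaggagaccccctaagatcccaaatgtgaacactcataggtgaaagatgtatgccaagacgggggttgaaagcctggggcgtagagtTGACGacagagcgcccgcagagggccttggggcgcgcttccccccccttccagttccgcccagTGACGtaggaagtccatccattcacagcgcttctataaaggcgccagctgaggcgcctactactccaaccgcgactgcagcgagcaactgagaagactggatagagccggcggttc
Dusp1: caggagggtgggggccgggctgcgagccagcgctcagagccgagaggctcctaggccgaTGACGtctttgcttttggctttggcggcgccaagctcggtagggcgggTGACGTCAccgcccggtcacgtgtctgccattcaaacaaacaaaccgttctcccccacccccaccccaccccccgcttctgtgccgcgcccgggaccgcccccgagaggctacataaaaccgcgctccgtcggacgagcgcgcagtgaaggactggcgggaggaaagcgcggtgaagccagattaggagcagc
Arl4d: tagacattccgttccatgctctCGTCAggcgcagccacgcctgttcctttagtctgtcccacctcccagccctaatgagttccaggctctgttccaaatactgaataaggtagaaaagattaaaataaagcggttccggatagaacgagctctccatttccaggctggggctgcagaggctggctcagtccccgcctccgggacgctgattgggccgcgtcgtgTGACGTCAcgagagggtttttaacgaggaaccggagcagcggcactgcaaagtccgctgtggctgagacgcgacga
Egr2: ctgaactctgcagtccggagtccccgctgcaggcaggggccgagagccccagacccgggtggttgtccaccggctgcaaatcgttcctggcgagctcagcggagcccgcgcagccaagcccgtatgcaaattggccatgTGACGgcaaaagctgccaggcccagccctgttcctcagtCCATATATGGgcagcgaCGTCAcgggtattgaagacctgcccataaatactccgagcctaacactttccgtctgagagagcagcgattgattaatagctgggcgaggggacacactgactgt
Npas4: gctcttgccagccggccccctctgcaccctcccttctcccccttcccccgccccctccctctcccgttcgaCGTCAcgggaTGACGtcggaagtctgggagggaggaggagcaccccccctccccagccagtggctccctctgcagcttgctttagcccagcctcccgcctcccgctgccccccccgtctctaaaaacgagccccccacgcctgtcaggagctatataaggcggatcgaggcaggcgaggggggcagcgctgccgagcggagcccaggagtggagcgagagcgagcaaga
Nr4a1: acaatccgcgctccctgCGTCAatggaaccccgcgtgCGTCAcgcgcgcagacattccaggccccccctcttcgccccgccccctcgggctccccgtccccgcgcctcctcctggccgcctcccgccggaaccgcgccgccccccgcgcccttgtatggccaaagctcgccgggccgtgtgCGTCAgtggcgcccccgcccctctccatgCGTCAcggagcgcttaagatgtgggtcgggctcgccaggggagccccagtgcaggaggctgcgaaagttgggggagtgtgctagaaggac
The windows are chr12:85473640-85473939 on the plus strand for Fos, chr17:26508423-26508722 on the minus strand for Dusp1 and chr11:101665291-101665590 on the plus strand for Arl4d. They are chr10:67537619-67537918 on the plus strand for Egr2, chr19:4989922-4990221 on the minus strand for Npas4 and chr15:101266596-101266895 on the plus strand for Nr4a1. Of Fos and the 7 genes, 8 in all, each but Arc had a window in the RefSeq table. The Junb window, which is not shown, held a short form 106 bases before the start. Their 11 windows, several for Egr2, held at least 1 short form in 9 cases, and 20.8% of all 32851 windows did. The Egr2 windows that start at 67537619, 67537620 and 67537680 overlap and hold the same short forms, so the 9 cases are not separate. The full element was present in Dusp1, 143 bases before the start, and in Arl4d, 26 bases before it, and in 1.79% of all windows. Egr2 had a CArG box 72 bases before the start in the window shown, a motif present in 1.63% of all windows. The AP-1 site, TGACTCA or TGAGTCA on either strand, had 0 matches in these 7 and was present in 5.2% of windows. A match describes the letters only and does not show that a factor was bound there in these mice.

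Among transcription factors with the largest differences, Npas4 and Egr2 stood first. Npas4, on chr19:4984353-5003439, encodes a neuron-specific factor induced by calcium entry. It had 9.19 CPM in the lowest, 12.7 in the median and 17.9 in the highest low Fos mouse. In the high Fos mice the corresponding levels were 19.7, 40.5 and 54.8 CPM. All 10 high mice lay above all 10 low mice, and the fitted difference was 1.66 (SE 0.18, 95% interval 1.28 to 2.04), a fold of 3.16 with an adjusted p of 0.000221 from edgeR. The lowest of the high mice, mouse 2, stood well below the next, which had 34.5 CPM.

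Egr2, a zinc finger factor on chr10:67534469-67542188, had a mean of 4.41 CPM over the 32 mice. Its levels were 1.52, 1.90 and 4.65 CPM in the lowest, median and highest low mouse and 4.38, 6.65 and 12.5 CPM in the high mice. The groups overlapped in 1 low mouse, mouse 7, which lay above 2 of the high mice. The fitted log2 difference was 1.57 (SE 0.18, adjusted p = 0.000221, edgeR).

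Junb, on chr8:84976909-84978748, encodes a partner of Fos in AP-1. It had 17.8, 22.9 and 26.3 CPM in the lowest, median and highest low mouse and 24.0, 37.5 and 60.5 CPM in the high mice. In 9 of the 10 high mice Junb was above every low mouse, the exception being mouse 25. The fitted log2 difference was 0.74 (SE 0.10, adjusted p = 0.00154, edgeR). Other AP-1 genes had smaller differences. Fosb, the close relative of Fos, had median levels of 8.30 CPM in low and 10.02 CPM in high mice, with a fitted log2 difference of 0.25 (SE 0.07, adjusted p = 1.0, edgeR). Jun and Jund, named here after their values were seen, had log2 differences of -0.07 (SE 0.09) and -0.07 (SE 0.08).

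The nuclear receptor gene Nr4a1 on chr15:101253902-101274795 had 24.7, 31.05 and 41.0 CPM in the lowest, median and highest low mouse and 38.4, 53.4 and 108 CPM in the high mice. The groups overlapped in 1 mouse of each, mice 7 and 27. The fitted log2 difference was 0.83 (SE 0.13, adjusted p = 0.0226, edgeR). Nr4a1 was the least secure of the 7 calls. It passed in 9 of the 20 fits that left out 1 mouse and was lost without mouse 4, 13, 15, 19, 20, 22, 24, 28, 29, 30 or 32, with a largest adjusted p of 0.0954, while the other 6 genes passed in all 20. Nr4a2, named after its values were seen, had a log2 difference of the other sign, -0.60 (SE 0.26, unadjusted p = 0.034, adjusted p = 1.0).

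Arc, on chr15:74669081-74672570, encodes a protein that travels to active synapses and takes part in the removal of AMPA receptors. Its mean was 75.4 CPM over the 32 mice. Low Fos mice had 45.5, 50.0 and 62.2 CPM in the lowest, median and highest mouse, and high Fos mice 76.6, 113 and 168 CPM. The groups did not overlap, and the fitted log2 difference was 1.09 (SE 0.11, 95% interval 0.85 to 1.33), a fold of 2.13 with an adjusted p of 0.000148 from edgeR.

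Dusp1, on chr17:26505591-26508472, encodes a phosphatase that removes the activating phosphates of MAP kinases, and it had the smallest p of all genes. Low Fos mice had 8.97, 9.75 and 10.8 CPM in the lowest, median and highest mouse and high Fos mice 12.9, 14.3 and 17.6 CPM. The difference was modest in size and tight in spread, with 0.55 on the log2 scale (SE 0.05, fold 1.47, adjusted p = 3.57e-05, edgeR). Arl4d, a small GTPase of the ARF family on chr11:101665541-101667832, had 19.3, 23.1 and 28.7 CPM in the low and 28.3, 32.3 and 38.6 CPM in the high mice. Its groups overlapped in 1 mouse of each, mice 28 and 14, and the fitted log2 difference was 0.49 (SE 0.06, adjusted p = 0.000942, edgeR).

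**Figure D2:**
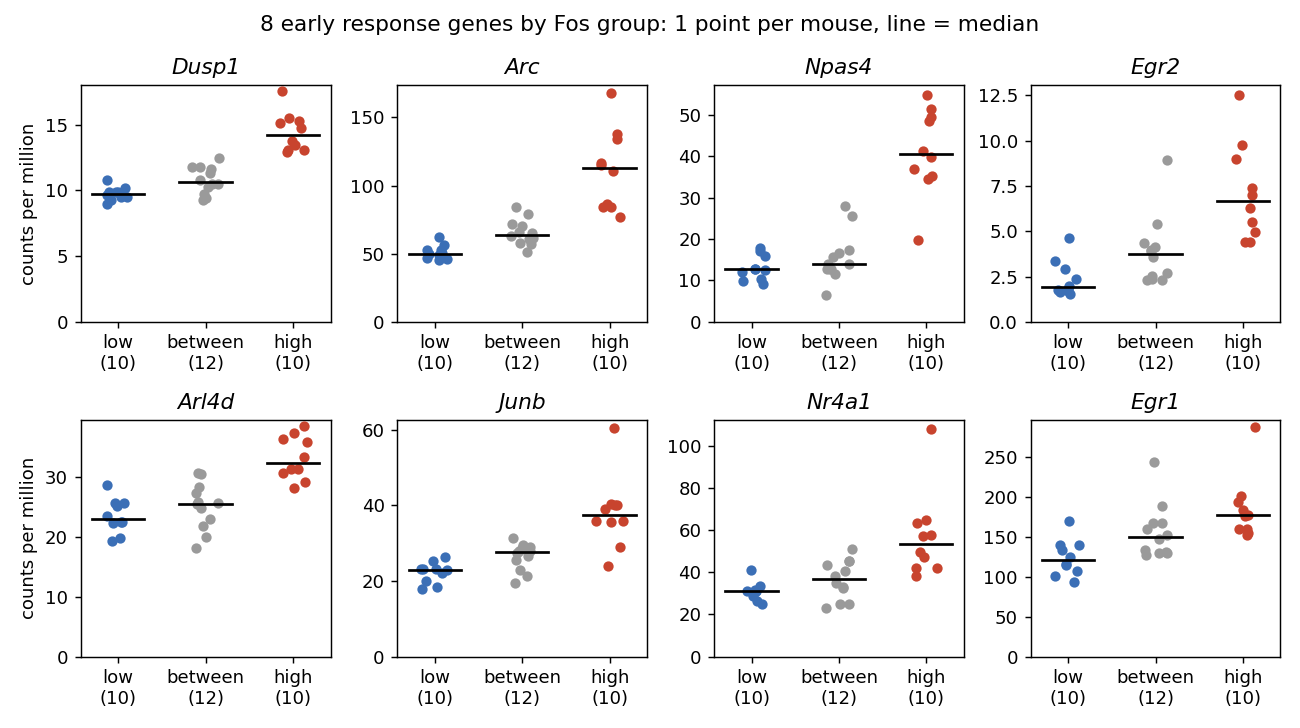
Levels of 8 early response genes in CPM, each axis starting at 0, with 1 point per mouse and a line at the median for the 10 low, 12 between and 10 high Fos mice. Dusp1, Arc and Npas4 did not overlap between low and high mice, and Egr1, which missed the threshold, had medians of 120 CPM in low, 149 CPM in between and 177 CPM in high mice.

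Several well known early response genes did not pass. Egr1, a zinc finger factor and a common marker of neuronal activity, had 93.8, 120 and 169 CPM in the lowest, median and highest low mouse and 152, 177 and 287 CPM in the high mice, a log2 difference of 0.55 (SE 0.10, adjusted p = 0.0731, edgeR). Egr4 had a log2 difference of 0.52 (SE 0.10) with the same adjusted p of 0.0731, and 1 high mouse, mouse 25, had 7.83 CPM, below 9 of the 10 low mice. Egr3, named after its values were seen, had 0.10 (SE 0.06), and 0.052 without mouse 14. Btg2, an antiproliferative early gene, had a log2 difference of 0.39 (SE 0.11, adjusted p = 1.0). Homer1, whose short form is induced by activity but whose long forms share its gene count, had medians of 197 and 204 CPM and a log2 difference of 0.04 (95% interval -0.08 to 0.17). Ier2 had 0.07 (95% interval -0.19 to 0.34).

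The 5 lists of early response genes held 103 genes, of which 101 were tested, 0.597% of all tested genes. The lists were drawn up with earlier results of these data known, so their counts are not independent evidence. Of the tested genes on them, 71 had a positive difference, 7 passed with higher levels and 0 with lower levels, and 23 were higher and 3 lower at an unadjusted p under 0.05, shares that were 1.24% and 2.12% over all tested genes. The median log2 difference was 0.06, against -0.0039 over all tested genes, of which 47.5% were positive. The 10 genes of smallest p in the whole fit were all on these lists. By role, 1 of 8 tested AP-1 genes passed (Junb), 2 of 9 Egr and Nr4a genes (Egr2 and Nr4a1), 1 of 30 other early regulators (Npas4), 2 of 40 early effectors (Arc and Arl4d) and 1 of 15 genes of MAP kinase feedback (Dusp1).

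Genes next in order of p did not pass. Ccn1, a matrix protein induced by serum and activity, had a log2 difference of 0.43 (SE 0.09, adjusted p = 0.229), and the potassium channel gene Kcnj2 had 0.29 (SE 0.06, adjusted p = 0.300). Adjusted p was 1.0 for Sik1, a kinase that restrains CREB signalling (0.26, SE 0.07), for Spry2, a Sprouty inhibitor (0.15, SE 0.04), for Dusp6, an ERK phosphatase (0.28, SE 0.08), for Lratd2 (0.23, SE 0.06) and for Adm, which encodes adrenomedullin (0.51, SE 0.15). Among other early effectors named after their values were seen, log2 differences were 0.27 (SE 0.08) for the G protein regulator Rgs2, 0.30 (SE 0.10) for Gadd45g and 0.20 (SE 0.07) for Tiparp. Of the genes lower in high Fos mice, those of smallest p did not pass either. Vgll3 had a log2 difference of -0.71 (SE 0.16, adjusted p = 0.451), Ogfod2 -0.16 (SE 0.04, adjusted p = 0.686), the thymidine phosphorylase gene Tymp -0.48 (SE 0.12, adjusted p = 1.0) and Acot4 -0.59 (SE 0.15, adjusted p = 1.0).

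The 7 genes were compared within each stratum, since both genotype and set were fixed when the mice were picked. All 7 had a higher mean in high than in low mice in each of the 4 strata, which was also true of 728 tested genes (4.30%). The 7 genes were called on these same mice, so this is a description and not separate support. On mean log2(CPM + 1), Arc differed by 1.48 in N/- mice of set A and 1.10 in those of set B, and by 0.75 and 0.87 in N/N mice of sets A and B. Nr4a1 differed by 1.27 and 0.72 in N/- mice and by 0.33 and 0.74 in N/N mice. Npas4 differed the most in the B sets, by 1.84 in N/- and 1.75 in N/N mice, against 1.41 and 1.26 in the A sets. Fitted within set A alone, 1 gene passed with higher levels (Arc, 0.00591% of those tested) and 0 with lower levels. Within set B alone 3 passed with higher levels (Npas4, Dusp1 and Egr2, 0.0177%) and 8 with lower levels (0.0473%), which are none of the early response genes. The fitted log2 differences of the 7 genes had the same sign in both sets, for example 1.02 and 0.98 for Arc, 1.43 and 1.90 for Npas4 and 0.52 and 0.52 for Dusp1. Within N/N mice alone 3 genes passed with higher levels (Npas4, Arc and Junb, 0.0177%), and within N/- mice alone 0 did, where the 7 log2 differences ran from 0.59 in Arl4d to 2.01 in Egr2. These fits hold 10 mice each. Those of set A and of N/- mice include the 3 high males and 3 low females in which Fos and sex cannot be told apart.

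**Figure D3:**
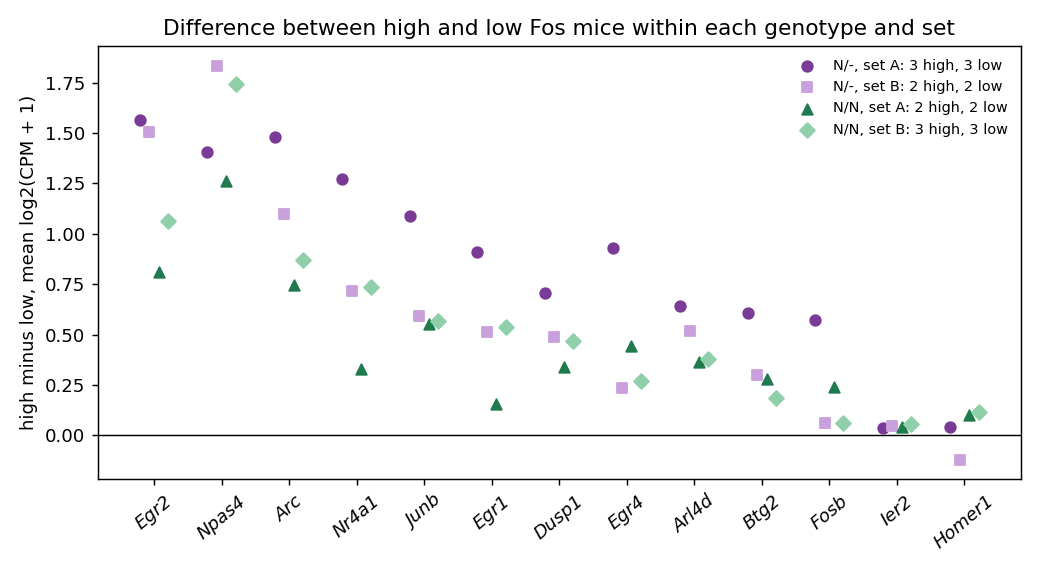
Difference in mean log2(CPM + 1) between high and low Fos mice for 13 early response genes within each of the 4 strata, with 1 symbol per stratum of 3 against 3 or 2 against 2 mice and no error bars. For Arc the values run from 0.75 to 1.48, and Homer1 has values on both sides of 0.

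Whether these differences depended on genotype was tested with an interaction term. At an adjusted p under 0.05, 0 genes differed between N/- and N/N mice (0%), and 528 (3.12%) did at an unadjusted p under 0.05; limma voom also called 0. The difference in Arc was larger in N/- than in N/N mice by 0.47 (SE 0.21, unadjusted p = 0.039, adjusted p = 1.0) and that in Egr2 by 0.74 (SE 0.35, unadjusted p = 0.0474, adjusted p = 1.0). The Fos difference that set the groups, on mean log2(CPM + 1), was 2.03 and 1.86 in N/- mice of sets A and B and 1.12 and 1.51 in N/N mice. Between sets, 0 genes passed and 554 (3.27%) had an unadjusted p under 0.05. The sex imbalance in N/- mice of set A was examined by leaving out these 6 mice, which left 5 of the 7 calls. Arl4d (log2 difference 0.42, adjusted p = 0.0695) and Nr4a1 (0.65, adjusted p = 0.127) were lost, and without the sex term all 7 passed.

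Exact two-sided permutation tests were run for 12 core genes, exchanging high and low mice only within strata. There were 14400 arrangements, and p-values were not adjusted for the 12 genes. Sex was not held fixed, unlike in the edgeR fit. In N/- mice of set A the 3 high mice were male and the 3 low mice female, so Fos and sex cannot be told apart there. The smallest p that these arrangements can give, 0.000139, was reached by Arc, Junb, Egr2, Nr4a1, Npas4 and Dusp1. Egr1 had an exact p of 0.000278, Egr4 of 0.00125, Btg2 of 0.00264 and Fosb of 0.00778. Ier2 (exact p = 0.633) and Homer1 (exact p = 0.50) did not differ detectably.

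Fos varies along a continuum in these mice, so each gene was also fitted as a slope on log2 Fos. Over all 32 mice, 10 genes had a positive slope at an adjusted p under 0.05 (0.0591%) and 0 a negative one (edgeR). These were the 7 genes above with Ccn1, Btg2 and Egr1. Per doubling of Fos, Npas4 differed by 0.77 (SE 0.09), Egr2 by 0.76 (SE 0.08), Arc by 0.51 (SE 0.04), Nr4a1 by 0.42 (SE 0.06), Junb by 0.32 (SE 0.04), Egr1 by 0.28 (SE 0.05), Dusp1 by 0.26 (SE 0.02) and Arl4d by 0.24 (SE 0.03) on the log2 scale. The 20 chosen mice enter this fit, so it is not a separate check of them.

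The 12 mice between were not used in the comparison of high and low mice. For all 7 genes their median lay between those of the low and the high mice. This ascending order held for 14.6% of all tested genes, a share that counts genes with a lower median in high mice, where it cannot hold. The 7 genes were called for higher levels in high mice, so their order is a description and not separate support. Within these 12 mice, 0 genes had a slope on log2 Fos that passed the adjusted threshold in either direction. At an unadjusted p under 0.05, 97 (0.573%) had a positive slope. The fit had a sex term and held mouse 3, entered as female by its label though it had 36 reads of Xist. It also held mouse 12, with 10.4% of its reads on mitochondrially encoded RNAs. The mice between were not fitted on their own without mice 3 and 12. The Arc slope was 0.36 (SE 0.10, unadjusted p = 0.00623), that of Egr2 was 0.98 (SE 0.37, unadjusted p = 0.0236), that of Egr1 0.41 (SE 0.18, unadjusted p = 0.0457) and that of Btg2 0.37 (SE 0.13, unadjusted p = 0.0163). Dusp1 (0.18, SE 0.12), Npas4 (0.24, SE 0.44) and Nr4a1 (0.48, SE 0.27) had positive slopes with wide errors. Junb had -0.19 (SE 0.17) and Arl4d a slope near 0 (-0.00031, SE 0.18). The other core genes, not called in the main fit, were Egr4 (-0.065, SE 0.15), Fosb (-0.059, SE 0.11), Homer1 (-0.057, SE 0.17) and Ier2 (0.18, SE 0.23). Of the 7 genes, 5 had a positive slope and 2 of these an unadjusted p under 0.05.

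**Figure D4:**
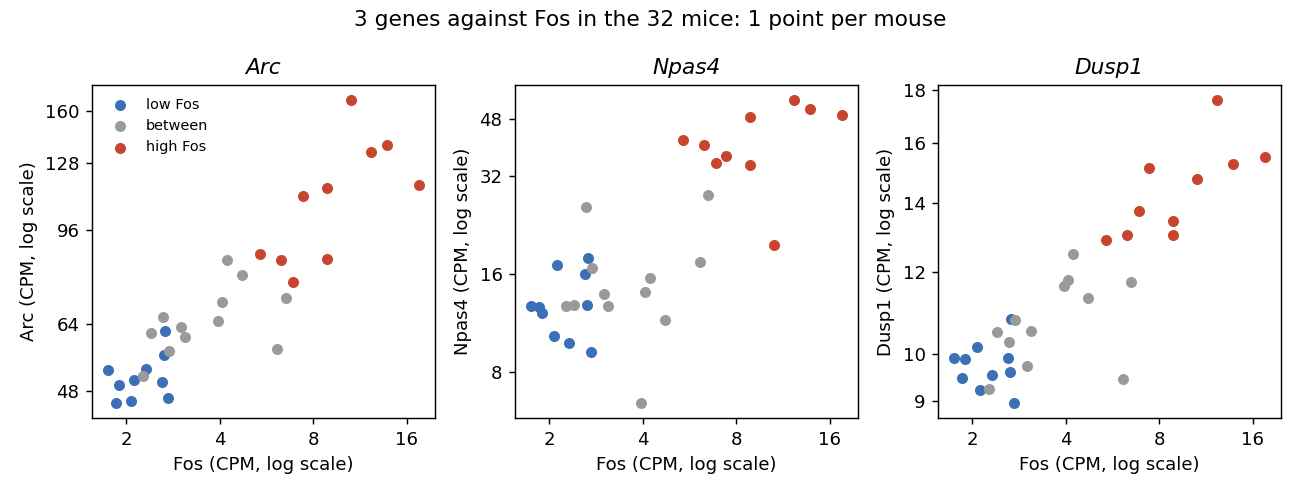
Arc, Npas4 and Dusp1 against Fos in the 32 mice, both in CPM scaled by library factors on log axes, with 1 point per mouse. Arc differs across the range of Fos with a slope of 0.51 over all mice and 0.36 within the 12 grey mice between, while Npas4 has a slope of 0.24 with an SE of 0.44 within those 12.

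Reads that chose the mice were also kept apart from reads that measured the other genes. Ranking by Fos in the first sequencing run and counting genes in the second run alone, 19 of the 20 mice were the same and 6 of the 7 genes passed. Mouse 3 took the place of mouse 15 among the low mice. It entered the sex term as female by its label though it had 36 reads of Xist. Nr4a1 had a log2 difference of 0.85 and an adjusted p of 0.105 in this fit. Both runs come from the same mouse, so they separate counting error but not differences between mice in the tissue taken.

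On the lists of cell type markers of the punch, 0 genes passed. In bulk tissue, fewer cells of a type and less RNA per cell cannot be told apart. Markers of cortical excitatory neurons were lower in high Fos mice for 14 of 16 genes, with a median log2 difference of -0.35 and 3 at an unadjusted p under 0.05, whereas 47.5% of all tested genes were positive and 2.12% were lower at that p. Their summed level ran from 2078 to 4050 CPM in low mice (median 2778) and from 1969 to 3089 CPM in high mice (median 2336). The log2 differences were -0.37 (SE 0.15) for Cux2, -0.21 (SE 0.09) for Rorb and -0.56 (SE 0.26) for Emx1, all cortical transcription factors, each with an adjusted p of 1.0. Slc17a7, the vesicular glutamate transporter of cortical neurons, named after its value was seen, had medians of 510 and 363 CPM and a log2 difference of -0.48 (SE 0.25). Without mouse 4, a low Fos mouse, the values were -0.29 for Slc17a7 and -0.37 for Emx1. Mouse 4 is an N/- mouse of set A. In set B alone Slc17a7 had -0.50 (SE 0.09) and Emx1 -0.62 (SE 0.19), and in N/N mice alone -0.50 (SE 0.15) and -0.69 (SE 0.27). With mouse 4, Slc17a7 had -0.56 (SE 0.56) in set A alone and -0.41 (SE 0.53) in N/- mice alone. Emx1 had -0.67 (SE 0.54) and -0.43 (SE 0.48) there.

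All 18 general markers of striatal projection neurons were positive, with a median of 0.09, and their summed level ran from 10152 to 17237 CPM in low and from 12771 to 17327 CPM in high mice. Projection neuron markers of the direct pathway were positive for 9 of 10 genes (median 0.12) and those of the indirect pathway for 9 of 10 (median 0.11). Log2 differences were 0.28 (SE 0.11) for Pdyn, which encodes prodynorphin, 0.13 (SE 0.08) for the dopamine receptor Drd1, 0.15 (SE 0.09) for Penk, which encodes proenkephalin, and 0.13 (SE 0.09) for the dopamine receptor Drd2. The general markers Dclk3 and Adcy5, an adenylyl cyclase, had 0.11 (SE 0.07) and 0.12 (SE 0.08). With a cortical marker score as a term these values were -0.013 for Penk, -0.017 for Drd2, -0.017 for Adcy5, 0.0022 for Drd1, 0.013 for Dclk3 and 0.17 for Pdyn, and without mouse 4 they were 0.084 for Drd2 and 0.079 for Adcy5. A difference between the direct and indirect pathway lists was not tested.

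The 7 genes were also fitted with a marker score in the model, for cortical or for projection neurons. Scores of other cell types were not fitted. With a cortical marker score as a term, Dusp1 had 0.54, Arc 1.04, Npas4 1.6, Egr2 1.37, Arl4d 0.49 and Junb 0.68, and all 6 passed, while Nr4a1 (0.78, adjusted p = 0.278) was lost. Ccn1 passed in that fit, with 0.53 and an adjusted p of 0.0319. With a projection neuron score as a term, added after the data were seen, all 7 passed. Bdnf, the gene of a neurotrophin that reaches the striatum largely from cortical axons, had a log2 difference of -0.43 (SE 0.20), and -0.14 with the cortical score as a term, and Nr4a2 had -0.60 and -0.35. Both genes were named after their values were seen, and the part of cortical tissue in these values was not tested further.

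In the other lists 0 genes passed. All 14 oligodendrocyte markers were positive (median 0.10) and 8 of 9 choroid plexus markers (median 0.22). The summed choroid level had medians of 17.2 CPM in low and 19.2 CPM in high mice, with highest levels of 22.5 and 68.9 CPM. F5, on that list, had 0.50 (SE 0.17), and Ttr, which encodes the choroid plexus protein transthyretin, had 1.41 (SE 1.27), with medians of 0.312 CPM in low and 0.296 CPM in high mice and a highest level of 36.7 CPM. Without mouse 2 the Ttr value was -0.78. All 8 ependymal markers were positive (median 0.19) and all 4 tested blood markers (median 0.20, 1 higher at an unadjusted p under 0.05). The interneuron list had 9 of 12 positive. Chat, the marker of cholinergic interneurons, had 0.23 (SE 0.10), and 0.046 (SE 0.07) with the cortical score as a term. The negative members were Vip (-0.37), Sst (-0.12) and Npy (-0.049). Of 12 astrocyte markers 9 were negative (median -0.03), and of 14 microglial markers 11 were positive (median 0.03). The 13 mitochondrially encoded RNAs were all negative with a median of -0.04, and their share of reads was 6.58% to 8.23% in low and 6.37% to 8.09% in high mice. The part of these shifts in the early gene differences was not tested.

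Stress-related genes were examined because handling and the maze can raise corticosterone. Of 12 glucocorticoid-responsive genes, 11 were positive with a median of 0.11, 3 were higher at an unadjusted p under 0.05 and 0 passed. Over all tested genes 47.5% were positive and 1.24% higher at that p. Nfkbia, Sgk1, Tsc22d3, Errfi1, Klf9 and Cdkn1a are also on the early response lists, so these counts are not separate from those above. Nfkbia and Sgk1 are among the 3 genes under that p. Log2 differences were 0.17 (SE 0.07) for Nfkbia, 0.22 (SE 0.09) for the kinase gene Sgk1 and 0.76 (SE 0.33) for the lipid droplet gene Plin4, whose highest level was 3.53 CPM in low and 16.4 CPM in high mice. Without mouse 25, a high Fos mouse, Plin4 had 0.29 and Sgk1 0.13. Heat shock genes had 8 of 12 positive values and a median of 0.01. The clock list had 11 of 14 positive values with a median of 0.03, and its gene of smallest p, Cry1, had 0.18 (SE 0.07). Of 21 genes for the kinases, coactivators and constitutive factors that induce early genes, 15 were positive with a median of 0.01, and Camk2a, a calcium-dependent kinase abundant in forebrain neurons, had -0.13 (SE 0.06).

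**Figure D5:**
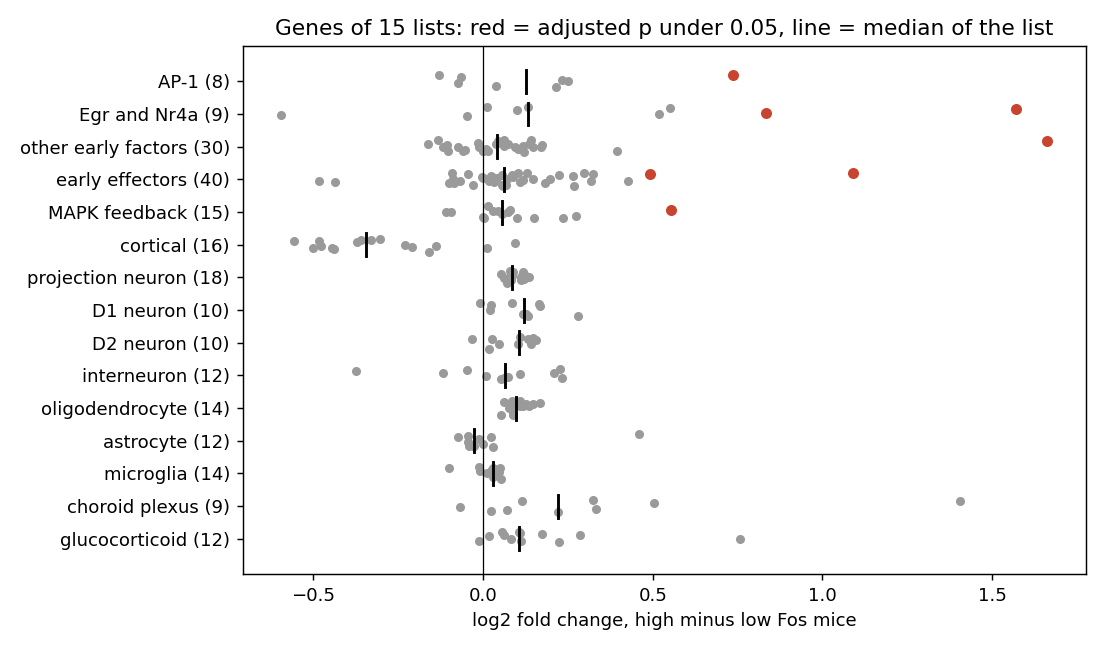
Log2 fold change between high and low Fos mice for the tested genes of 15 lists, with 1 point per gene, the number of genes in parentheses, red for an adjusted p under 0.05 and a black line at the median of the list. All 7 red points lie in the 5 early response lists at the top, the cortical list has a median of -0.35, and the projection neuron list a median of 0.09.

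The called genes were short. Their annotated spans on GRCm38.p6 ran from 1840 to 20894 bases with a median of 3490 bases, against a median of 22648 bases for the 16414 tested genes with coordinates, and 47.5% of those were no longer than the longest called gene. The spans are a description of the members, with no test.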

How the data were processed

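The authors deposited whole-number read counts per gene (Entrez identifiers, no normalization), 1 table per sequencing run, 64 runs of 32 mice. The submitters' processing notes name FastQC 0.11.3, Subread, featureCounts, edgeR 3.8.6, limma 3.22.7 and the mm10 build. The series text names TopHat and HTSeq instead, and the use of strand in counting is not stated in those notes or labels, so overlapping antisense transcripts could add to a count. Counts of the 2 runs of a mouse were summed and symbols taken from RefSeq for 25275 of 27179 identifiers.

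Genes were kept by filterByExpr over the 32 mice (16924, Fos included) and CPM were scaled by TMM except where Fos chose the mice. The test across all genes was edgeR 4.0.16 (R 4.3.3), robust quasi-likelihood with 4 strata of genotype by set, sex and high against low Fos, 14 residual degrees of freedom, and Benjamini-Hochberg adjustment with a threshold of 0.05. SE and 95% intervals were derived from the F statistic. Alternatives used DESeq2 1.42.0 and limma voom 3.58.1. Mice of both groups shared 4 of the 13 cages that the 20 mice came from. Litters are not labelled, so p-values measure the spread between these mice. The members, 25 gene lists and tests were chosen with earlier results of these data known. Named genes were the early response genes past the threshold, 12 core genes, up to 12 others of smallest p in each direction and up to 4 per other list, of which some are given, and exceptions are stated.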

Additional observations from a re-analysis of the deposited data

Results flagged for a closer look

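In groups of 10 mice, a mouse was marked where its gap to the nearest other mouse took a larger share of the range of the group than Dixon's 95% critical value, which chance gives in about 1 in 20 groups. Over 34 groups 5 such mice were found. Among high Fos mice, mouse 2 had 286.6 CPM of Egr1, with the next mouse at 201.0 CPM. Mouse 2 also had 108.0 CPM of Nr4a1, with the next mouse at 64.9 CPM. Mouse 16 had 60.5 CPM of Junb, with the next at 40.4 CPM. Among low Fos mice, mouse 7 had 41.0 CPM of Nr4a1, with the next at 33.2 CPM. Mouse 14, a high Fos mouse, had 8.09% of its reads on mitochondrially encoded RNAs, with the next at 7.16%.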

How the results depend on the processing

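The count of 7 higher genes was 9 without library scaling by TMM, 6 with no filter on low counts, 7 with genes of at least 1 CPM, 7 without the sex term, 8 without the strata, 7 with cage as a random effect, 7 with limma voom, 7 with either marker score as a term and 7 with mice ranked by scaled Fos, which chose the same 20 mice. It was 6 with mice ranked in the first run and genes counted in the second, and 6 to 9 when 1 mouse was left out. DESeq2 called 11 genes, adding Kcnj2, Egr1, Ccn1 and Egr4, and the slope over 30 mice, without mice 3 and 12, 11. Set A alone gave 1 gene (Arc), set B alone 3 (Npas4, Dusp1 and Egr2), N/N mice alone 3 (Npas4, Arc and Junb), N/- mice alone 0 and the slope over the 12 mice between 0. The mice without the N/- mice of set A gave 5. The count of lower genes was 0 in each of these settings apart from set B alone, where 8 genes passed (Fhl2, Cnih3, Gng2, Mapk11, Rtn4r, Medag, Cadps2 and Cpne4), named after the values were seen. The fits of 1 set or 1 genotype hold 10 mice, and in those of set A and of N/- mice Fos and sex are partly tied. All 7 genes kept their sign in every setting except the slope over the 12 mice between. Both interaction counts stayed at 0 with limma voom, and 10 of 12 core genes had an exact permutation p under 0.05 with a prior count of 2, with 0.5 and without TMM.

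Values of the opposite sign were found as follows, on the log2 scale. The slope over the 12 mice between gave -0.00031 for Arl4d, -0.19 for Junb, -0.065 for Egr4, -0.059 for Fosb, -0.057 for Homer1, -0.12 for Sik1, 0.25 for Cux2, 0.28 for Rorb, 0.26 for Slc17a7, -0.052 for Pdyn, -0.072 for Drd1, -0.049 for Drd2, -0.064 for Dclk3, -0.077 for Adcy5, -0.13 for Chat, -0.17 for Nfkbia, -0.19 for Sgk1, -1.02 for Plin4, -0.10 for Cry1, 0.13 for Camk2a, -0.052 for Gadd45g, 0.33 for Bdnf, 0.47 for Nr4a2 and -0.11 for Egr3. The cortical score as a term gave 0.034 for Slc17a7, -0.013 for Penk, -0.017 for Drd2, -0.017 for Adcy5 and 0.051 for Jun. Slc17a7 is itself on the list averaged in that score, so its value in that fit is not a separate result. The projection neuron score gave -0.0022 for Homer1 and 0.0091 for Jun, ranking in the first run -0.0090 for Homer1, N/- mice alone -0.068 for Homer1 and 0.024 for Jun, and set A alone -0.029 for Ier2 and 0.0702 for Jund. Ttr was -1.61 in set B alone, -0.68 in N/N mice alone, -1.01 without the N/- mice of set A, and -0.78 to 1.89 when 1 mouse was left out. The cause of these reversals was not tested, and Junb and Arl4d are the called genes among them. The labels do not tie the mice to litters, and the marker scores, the 30 mice and the mice without N/- mice of set A include alternatives chosen after seeing the data.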

Other observations

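The early response genes did not rank the high Fos mice alike. Mouse 8 had the highest Fos, Btg2 and Ier2 of the 32 mice, mouse 2 the highest Arc, Egr1, Egr2, Egr4 and Nr4a1, and mouse 16 the highest Junb, Npas4, Dusp1, Arl4d and Fosb. All 3 were N/- males of set A. Mouse 2 had 167.7 CPM of Arc and 12.5 CPM of Egr2, the highest levels of both, and 19.7 CPM of Npas4, the lowest of the high Fos mice. Mouse 31, 1 of the mice between, had 242.8 CPM of Egr1 and 8.93 CPM of Egr2 with 4.06 CPM of Fos. Mouse 3, also between, had the highest Homer1 of the 32 mice, 305.4 CPM, and the lowest Nr4a1, 22.97 CPM. These levels are values of single mice with no test. Mouse 3 is labelled female and had 36 reads of Xist. The other mice labelled female had 27239 to 48029, and mice labelled male at most 598. Neither mouse 3 nor mouse 12 is among the 20 mice of the main comparison, but mouse 3 enters the fit ranked by the first run.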
